A study of Rattus norvegicus with 24 samples.

Results

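The AMPA and kainate receptor subunits are the pore-forming proteins of the fast glutamate-gated channels other than the NMDA receptor. They were followed here in rats given MK-801, which blocks the open channel of the NMDA receptor. Array probes were taken for the 4 AMPA receptor genes, Gria1 to Gria4, and the 5 kainate receptor genes, Grik1 to Grik5, by the gene name in the scanner files or its current rat symbol. All 9 genes, of 15450 named on the array, had a probe. This gave 11 probes of 41012, of which 6 were for AMPA and 5 for kainate receptor genes, and all 11 passed the filter on dim probes. All animals were male Wistar rats, 10 weeks old. The control group of 3 rats received saline, and the other 6 rats, in 2 dose groups, received MK-801 at 0.08 mg per kg (low dose) or 0.16 mg per kg (high dose), all by intraperitoneal injection. Brains were removed 40 min later, and 6 regions were dissected: hippocampus, hypothalamus, midbrain, amygdala, cerebral cortex and ventral striatum. Each of the 24 two-colour arrays held RNA of MK-801 rats in 1 dye and RNA of saline rats in the other, in 12 dye swaps of 2 arrays, 1 swap for each region and dose. Which rats an array represents, and whether RNA was pooled, is not in the labels, so an n given here is a number of regions from these 9 rats, not of animals.

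AMPA receptors are tetramers of the subunits GluA1 to GluA4, encoded by Gria1 to Gria4, and they carry most of the fast excitatory current in the brain. Edited GluA2 makes the channel impermeable to calcium, and each AMPA subunit is spliced to a flip or a flop form that sets how fast the channel desensitizes. Kainate receptors are tetramers too: the subunits of Grik1 to Grik3 can form channels alone, while those of Grik4 and Grik5 bind kainate with high affinity and need one of the former as a partner. The hippocampus is known for its dense AMPA receptors and for the kainate receptors at its mossy fibre synapses.

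Each probe was an oligonucleotide of 60 bases. The sequences of 7 probes with an open reading frame follow, because they tell which stretch of a subunit, and for Gria1 and Gria4 which splice form, a level stands for. Coordinates are on assembly rn3, as in the files, which give none for the Gria1 probe. Capitals mark the bases at which the Gria1 probe and the second Gria4 probe carry the same letter when they are laid over each other, and the other probes are in lower case throughout.
Gria1 (A_43_P15761): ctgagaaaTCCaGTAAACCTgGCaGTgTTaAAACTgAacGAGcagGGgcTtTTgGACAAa
Gria4, second probe (A_44_P349199), chr8:963017-963076, minus strand: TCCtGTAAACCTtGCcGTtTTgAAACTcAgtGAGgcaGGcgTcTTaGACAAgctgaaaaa
Gria4, first probe (A_44_P323349), chr8:957385-957444, minus strand: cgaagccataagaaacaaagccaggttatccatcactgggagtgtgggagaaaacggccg
Gria3 (A_44_P449764), chrX:3465270-3465329, minus strand: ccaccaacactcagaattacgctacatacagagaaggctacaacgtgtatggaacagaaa
Grik1 (A_43_P11875), chr11:27734832-27734891, minus strand: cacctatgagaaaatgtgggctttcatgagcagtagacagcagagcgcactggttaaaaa
Grik4 (A_42_P543670), chr8:45522998-45523057, minus strand: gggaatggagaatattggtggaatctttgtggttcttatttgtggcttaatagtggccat
Grik5 (A_44_P512799), chr1:80396124-80396183, minus strand: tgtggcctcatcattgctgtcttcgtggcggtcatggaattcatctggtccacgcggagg

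Translated, the Gria1 probe carries the residues of the flop form and the second Gria4 probe those of the flip form, while the first Gria4 probe carries neither. Over the 52 bases in which the Gria1 and the flip probe overlap, 36 letters were the same, and no other of the 55 pairs of subunit probes matched at more than 25 of 60 bases. Whether the flip probe also bound flip transcripts, or the Gria1 probe flop transcripts, of other AMPA genes was not tested. Gria1 had only this 1 probe, so splice form and gene level cannot be told apart for it. The remaining probes lay at chr2:172216693-172216752 (Gria2, first probe, A_44_P289627), chr2:172216995-172217054 (Gria2, second probe, A_44_P289630), chr20:53259323-53259382 (Grik2, A_44_P252545), all on the minus strand, and chr5:145067682-145067741 on the plus strand (Grik3, A_44_P242904). The Gria2 and Grik2 probes had no open reading frame, and that of Grik3 had 1. The Gria1 probe and the second Gria2 probe were printed in 10 spots per array, with a median SD among spots of 0.0928 and 0.073 in the log2 ratio, and the others in 1 spot.

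On an array, 55.2% to 78.5% of all probes exceeded background clearly in Cy3 and in Cy5, and the number of arrays limits the precision of every value. The 2 arrays of a dye swap, turned the same way, correlated negatively across probes (r from -0.505 to -0.125), and arrays of the same dye orientation positively (median r 0.39), so only means of a dye swap are used as values. Slides held 1 region each, so that slide and region cannot be told apart. The region labels were checked with marker genes: 5 of 5 measured ventral striatum markers and 3 of 3 midbrain markers were highest in their region, 2 of 3 for the cerebral cortex, 1 of 2 for the hippocampus, 2 of 5 for the hypothalamus and 1 of 3 for the amygdala. Avp, the vasopressin gene of the hypothalamus, was highest in the amygdala samples, as were the summed meningeal markers, at a log2 level of 14.98 against 12.41 to 13.78 in the other regions, and the summed choroid plexus markers, at 15.23 against 8.57 to 13.68.

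The saline rats give the level of each subunit transcript without the drug. Levels are log2 intensities of the saline RNA after normalization between arrays, given as the mean of 2 dye swaps per region. They are a description with no test, a level of 1 probe cannot be set against that of another, and in whole tissue fewer cells of a type and less RNA per cell cannot be told apart. Neighbouring regions in an order are called apart where the dye swap values of one do not overlap those of the other. Subunit probes varied widely between regions: the difference between the highest and the lowest region had a median of 1.77 log2 units over the 11 probes, against 0.747 over 24618 probes. It exceeded 2-fold for 10 of the 11, against 31.1% of all probes. Of the 9 subunit probes with both dye swaps in every region, 4 had a highest region apart from the next, a share near the 45.6% of all such probes. The other 2 had a highest region apart too, with 1 dye swap in it or in the next. The hippocampus was the highest region of 5 subunit probes, the ventral striatum of 4 and the amygdala and cerebral cortex of 1 each, where the hippocampus was the highest of 20.4% and the ventral striatum of 14.1% of all probes. The highest region was the same in all 10 alternatives for Gria1, the flip probe of Gria4 and Grik2, and in as few as 3 for the second Gria2 probe and 4 for Grik5. The midbrain was the lowest of 5 (14.9% of all probes), the amygdala and hypothalamus of 2 each and the ventral striatum and hippocampus of 1 each. Without the quantile step between arrays, the hypothalamus was the lowest region of both Gria2 probes, the flip probe of Gria4 and Grik5. The midbrain stayed lowest in all 10 alternatives for Gria1 and in 9 for the first Gria2 probe. It did so in 8 for the flip probe and Grik5, and in 5 for the second Gria2 probe.

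Gria1, in its flop form, had the widest regional range of the family, 2.96 log2 units, though without the quantile step between arrays its 2.26 was below the 2.49 of the second Gria2 probe and the 2.32 of the flip probe of Gria4. Its level was 11.36 in the hippocampus (4 arrays from 10.95 to 11.77), 9.95 in the ventral striatum (9.67 to 10.25), 9.69 in the cerebral cortex (9.58 to 9.78), 9.37 in the hypothalamus (9.27 to 9.61), 9.13 in the amygdala (9.09 to 9.22) and 8.39 in the midbrain (8.13 to 8.62). Each region was apart from the next. The hippocampus stood 2.65-fold over the ventral striatum and 7.8-fold over the midbrain, a range wider than that of 98.3% of all probes. The hippocampus stayed highest and the midbrain lowest under all 10 alternatives tried, among them the RNA of the high-dose rats (11.51 and 8.45) and of the low-dose rats (11.36 and 8.45).

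Gria2, whose product sets the calcium permeability of the receptor, fell into a high and a low set of regions. The second probe read 13.31 in the hippocampus (arrays from 12.81 to 13.55), 13.28 in the ventral striatum (13.22 to 13.31), 13.17 in the cerebral cortex (13 to 13.34) and 12.79 in the amygdala (12.74 to 12.83), and then 11.11 in the hypothalamus (10.79 to 11.24) and 11.08 in the midbrain (10.99 to 11.16). The gap between amygdala and hypothalamus was 3.22-fold, while the hippocampus and ventral striatum, and the hypothalamus and midbrain, were not apart. The first probe gave the same split, from 12.8 in the amygdala upwards and from 11.46 in the hypothalamus downwards, with a gap of 2.53-fold. It placed the hippocampus alone on top at 13.79, a value from 1 dye swap, since 1 array lost its spot to an outlier flag. Over the 6 regions the profiles of both Gria2 probes correlated with r = 0.97. The highest region of the second probe was the hippocampus in 3 of the 10 alternatives and otherwise the ventral striatum or cerebral cortex. Without the quantile step, hippocampus minus midbrain was 1.76 in place of 2.64 on the first probe and 1.43 in place of 2.23 on the second.

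Gria3 was higher in the 4 telencephalic regions, with less contrast. Its level was 10.54 in the cerebral cortex, 10.44 in the amygdala, with the hippocampus at 10.06 and the ventral striatum at 10.01, against 9.23 in the midbrain and 9.02 in the hypothalamus. The ventral striatum stood 1.72-fold over the midbrain and was apart from it, while the order within the upper set was loose, with hippocampal arrays from 9.17 to 10.69. The full range was 2.87-fold.

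The probes of Gria4 gave different regional profiles. The first one varied 2.12-fold, from 10.12 in the ventral striatum and 10.03 in the hypothalamus through 9.81 in the hippocampus, 9.61 in the midbrain and 9.6 in the cerebral cortex to 9.04 in the amygdala. The flip probe varied 6.69-fold, from 10.58 in the hippocampus to 8.06 in the hypothalamus and 7.84 in the midbrain, with the ventral striatum at 9.78 (1 dye swap), the cerebral cortex at 9.54 and the amygdala at 9.47. Relative to its own mean over the regions, the hypothalamus was 0.33 above on the first probe and 1.15 below on the flip probe, and the amygdala was 0.66 below on the first and 0.26 above on the second. The correlation of the 2 profiles over 6 regions was r = -0.03. The flip profile was close to that of the first Gria2 probe (r = 0.99, the same 6 regions) and less so to that of Gria1 (r = 0.84). Single arrays of the flip probe scattered from 8.2 to 10.02 in the amygdala, and its dye swaps there differed by 0.461 to either side of their mean. Splice form, position in the transcript and binding of related transcripts cannot be told apart with 1 probe of each kind.

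**Figure D1:**
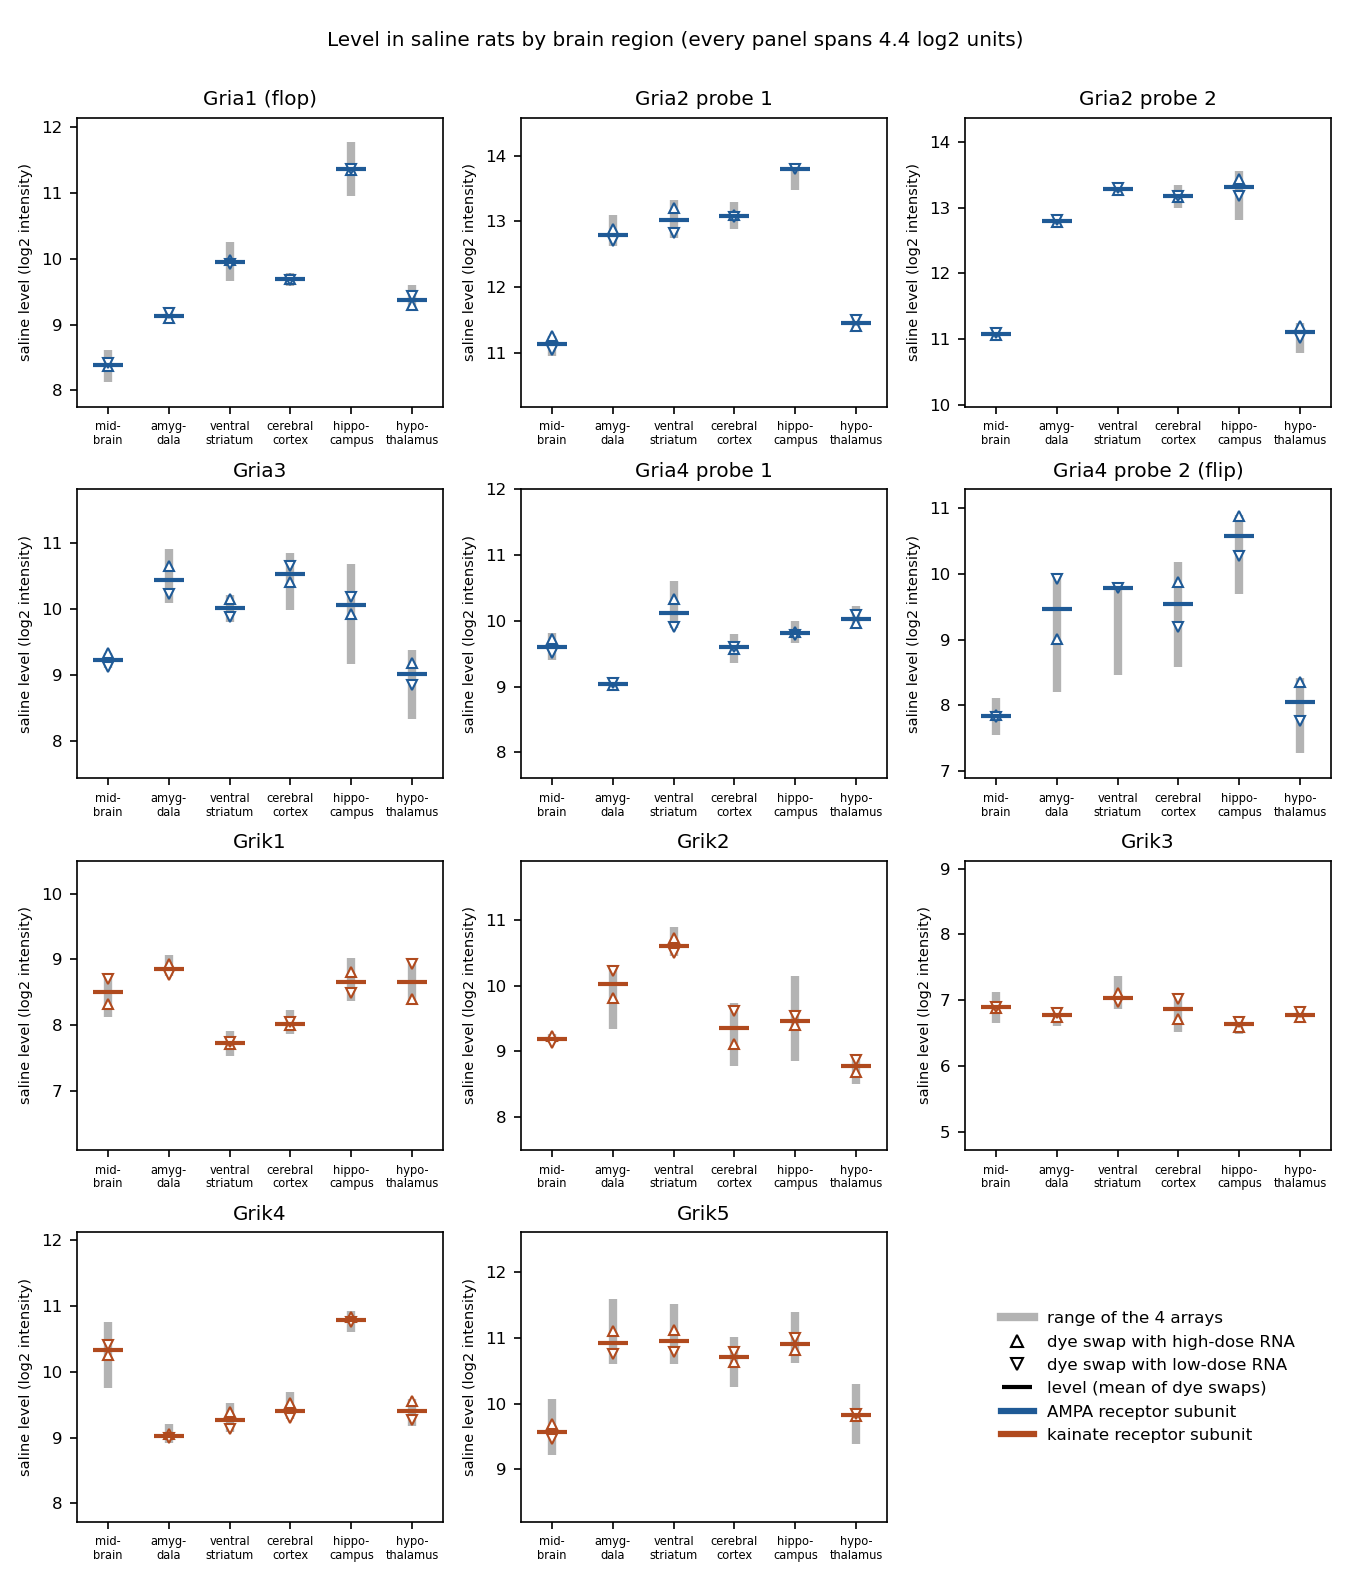
Level of each subunit probe in saline rats (vertical axis, log2 intensity) in 6 brain regions (horizontal axis), with the grey bar spanning the 4 arrays of a region, triangles the dye swaps and the short line their mean. Gria1 runs from 8.39 in the midbrain to 11.36 in the hippocampus, both Gria2 probes fall into 4 high and 2 low regions, and Grik3 stays between 6.63 and 7.04.

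**Figure D2:**
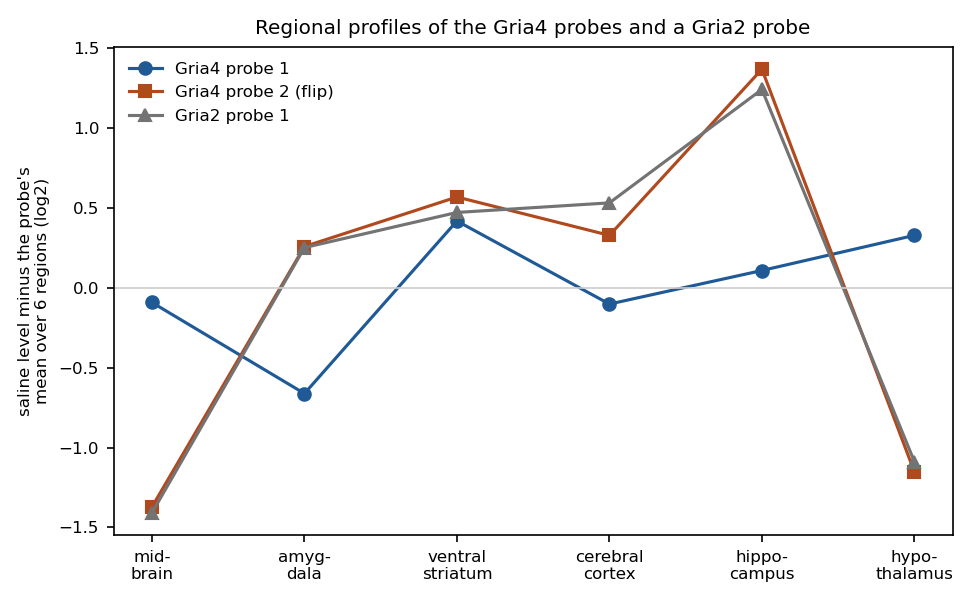
Saline level of 3 probes relative to each probe's own mean over the regions (vertical axis, log2) by region (horizontal axis). The flip probe of Gria4 follows the first Gria2 probe, while the first Gria4 probe is 0.33 above its mean in the hypothalamus and 0.66 below it in the amygdala.

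Among the kainate receptor genes that can form channels alone, Grik1 and Grik2 had opposite places for the ventral striatum. Grik1 (GluK1) was highest in the amygdala at 8.85 (arrays from 8.75 to 9.07) and lowest in the ventral striatum at 7.73 (7.53 to 7.91), a range of 2.18-fold. Its hypothalamus (8.66), hippocampus (8.65) and midbrain (8.51) were not apart from their neighbours above, and the cerebral cortex was at 8.02. Grik2 (GluK2) was highest in the ventral striatum at 10.6 (10.45 to 10.9), 1.5-fold over the amygdala at 10.02 (9.34 to 10.31), and 3.55-fold over the hypothalamus at 8.78 (8.5 to 8.9). Its hippocampus (9.47), cerebral cortex (9.36) and midbrain (9.19) lay between. The ventral striatum stayed the highest region for Grik2 and the lowest for Grik1 under all 10 alternatives.

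Grik3 (GluK3) was close to background. Its probe was not well above background on any of the 4 hippocampal arrays and was so on 2 of the 4 amygdala arrays, and its levels ran from 7.04 in the ventral striatum to 6.63 in the hippocampus. Against the lowest signal well above background, the ventral striatum was at least 1.3-fold higher than the hippocampus in the normalization used here. That value depended on the processing: the log2 difference was 0.17 without the quantile step and 0.23 in the RNA of low-dose rats, and the ventral striatum was the highest region in 5 of the 10 alternatives. The remaining regions lay from 6.78 to 6.89, and neighbours among them were not apart.

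The high-affinity subunits differed from each other. Grik4 (GluK4) was highest in the hippocampus at 10.79 (arrays from 10.6 to 10.93) and next in the midbrain at 10.33 (9.76 to 10.76). Both were apart from each other and from the rest, which read 9.41 in the cerebral cortex and in the hypothalamus, 9.26 in the ventral striatum and 9.03 in the amygdala. Without the quantile step the midbrain was the highest region for Grik4. In the normalization used here the midbrain ranked second for Grik4, 1.89-fold over the cerebral cortex. It was the lowest region there for Gria1, Gria2, the flip probe of Gria4 and Grik5. Of these, only Gria1 kept it lowest without the quantile step. Grik5 (GluK5) was 10.95 in the ventral striatum, 10.93 in the amygdala and 10.91 in the hippocampus, with the cerebral cortex at 10.71, and then 9.83 in the hypothalamus and 9.57 in the midbrain. The first 3 of these did not lie apart, the cerebral cortex stood 1.84-fold over the hypothalamus, and this split into 4 high and 2 low regions was that of Gria2 (r = 0.97 with the second Gria2 probe over 6 regions).

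Markers of myelinating cells were ordered the other way in part. Of the 7 oligodendrocyte markers, all measured and none near background, the 5 with a value in every region summed to log2 levels of 18.05 in the midbrain and 17.82 in the hypothalamus, against 17.48 in the ventral striatum, 17.03 in the hippocampus, 16.69 in the cerebral cortex and 16.48 in the amygdala. The 8 neuronal markers summed to 16.48 and 16.56 in the midbrain and hypothalamus and to between 15.57 and 16.4 elsewhere. They did not move as one: Rbfox3, which encodes the neuronal nuclear protein NeuN, was lower in the midbrain and hypothalamus (12.41 and 12.78) than elsewhere (13.39 to 14.33), while Slc17a6, a vesicular glutamate transporter, was highest there (13.81 and 14.72). The part of cell makeup in the low Gria2 and Grik5 levels of those 2 regions was not tested.

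Other genes with the most similar saline profile were looked for among 3575 genes that varied over 2-fold between regions, by Pearson correlation over the same 6 regions, which share slides and rats. For Gria1 these were Klf13 (r = 0.98) and Clcn2 (0.979), for Gria2 Enox1 (0.994) and Rgs14 (0.991), and for Gria3 Efemp1 and Wdr13 (both 0.985). The first Gria4 probe was closest to Ptpn11 (0.97) and Gga1 (0.961). Among kainate genes, Grik1 was closest to Aloxe3 (0.98) and Hap1 (0.964), Grik2 to Lpin3 and Myh6 (both 0.975), Grik3 to Entpd3 (0.986) and Ska2 (0.981), and Grik5 to Pak6 (0.996) and Rin1 (0.993). The Grik3 profile is that of a probe close to background. Grik4 had the least common profile, with Kiaa1191 (0.907) and Prss35 (0.904) as its closest genes. Only 2 genes exceeded r = 0.9 for Grik4 and 7 for the first Gria4 probe. Such genes numbered 15 for Grik1, 26 for Grik3 and 34 for Grik2. They numbered 75 for Gria1, 90 for Gria3, 99 for Grik5 and 112 for the first Gria2 probe. The flip probe of Gria4 was not searched. The best of so many candidates over 6 regions can correlate highly without any link, and the number reached by chance was not estimated.

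The partners of these receptors also varied between regions. AMPA receptor auxiliary subunits are membrane proteins that traffic the channel and slow its closing. Of 17 listed, 10 were measured, 9 of them varied over 2-fold (31.1% of all probes), and 4 were highest in the hippocampus (20.4% of all probes). The following were picked for display after their values were seen. Cnih2, a cornichon protein bound to AMPA receptors, was at 12.27 in the hippocampus, 0.87 log2 units over the next region, and Cacng8, the TARP known as gamma-8, was at 10.05 there, 1.01 over the next. Both shared the top region with the flop probe of Gria1. Cacng2 (stargazin) was highest in the hypothalamus at 11.5 and Cacng3 in the cerebral cortex at 10.34. Neto1 and Neto2, the auxiliary subunits of kainate receptors, were highest in the hippocampus (9.34) and the ventral striatum (12.59), the top regions of Grik4 and of Grik2, respectively. The rest of the Neto1 profile differed from that of Grik4. In the midbrain, the second region for Grik4, Neto1 read 6.72, and only the hypothalamus was lower, at 6.54. Adarb1, the enzyme that edits the pore codon of Gria2, was highest in the hypothalamus (15.4) and midbrain (14.94), where both Gria2 probes were lowest, and lowest in the hippocampus (13.19).

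The main comparison asked whether a block of NMDA receptors changed the subunit transcripts within 40 min. No subunit probe passed the test at either dose, and none of the 9 that could be tested by region passed in any region. Each value is the log2 of the MK-801 to saline ratio, tested with limma against 0 over the 6 regions with Benjamini-Hochberg adjustment over all probes, and a call needed an adjusted p under 0.05. Over both doses, 0 of the 11 subunit probes were called, where the background was 2.45% (669 of 27267 probes, or 1802 when single arrays were fitted with the array number as a block). At the high dose, 0 of 11 were called (background 2.01%), at the low dose 0 of 11 (2.42%), and for the high minus low difference 0 of 11 (1.44%). At an unadjusted p under 0.05 there were 2, 3, 2 and 2 of 11 probes in the same order, where the share over all probes was 13.5%, 12%, 13% and 10.8%. The spread behind these p values is that between regions of 1 set of rats, and both doses share the 3 saline rats.

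The intervals of the subunit probes were narrow, but they hold the spread between regions and not that between rats. Averaged over both doses, means ran from -0.053 to 0.049, with a median of -0.027, and 9 of the 11 were below 0, against a median of 0 over all probes. The 95% intervals of all 11 lay between -0.112 and 0.122. Of the 130 single values that could be had for a probe, region and dose, the lowest was -0.263 and the highest 0.194, or 1.2-fold lower and 1.14-fold higher, and 4 were farther than 0.2 from 0. The offset used in the background correction makes the ratio of a dim probe such as that of Grik3 smaller than the true one.

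Among the AMPA receptor genes, Gria2 was the nearest to a shared direction. The second probe read -0.16 in the midbrain, 0.013 in the amygdala, -0.088 in the ventral striatum, -0.033 in the cerebral cortex, -0.077 in the hippocampus and -0.044 in the hypothalamus at the high dose. At the low dose it read -0.09, 0.006, -0.101, 0.01, -0.017 and -0.049 in the same regions. The values of this probe were thus below 0 in 9 of 12 dye swaps, lowest in the midbrain and ventral striatum, and about 0 in the amygdala. The mean over both doses was -0.053 ± 0.05 (SD, n = 6 regions), a fold of 0.964, with an adjusted p of 0.333 (limma). The first probe gave -0.053 ± 0.035 (n = 5) with an adjusted p of 0.336, and its 12 values, 1 of them missing, ran from -0.17 to 0.025. Its lowest value was also that of the midbrain at the high dose, but its regional order differed otherwise. It read -0.155 in the amygdala at the low dose, and -0.015 and -0.055 in the ventral striatum at the high and low dose. Gria3 ran from -0.116 to 0.113 over 12 dye swaps, with a mean of -0.022 ± 0.051 (n = 6).

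Gria1 showed the largest dose difference of the family. At the high dose its flop probe read 0.079 in the midbrain, 0.176 in the amygdala, 0.046 in the ventral striatum, -0.012 in the cerebral cortex, 0.158 in the hippocampus and -0.022 in the hypothalamus. The low dose gave 0.036, -0.263, -0.115, -0.092, 0.001 and -0.224 in the same regions. The high dose was above the low dose in 6 of 6 regions, by 0.043 in the midbrain to 0.439 in the amygdala, while the 2 sets of values overlapped. The difference was 0.181 ± 0.139 (SD, n = 6), or 1.13-fold, with a 95% interval from 0.082 to 0.279, an unadjusted p of 0.00165 and an adjusted p of 0.087, so it was not called. Without the amygdala it was 0.129, with an adjusted p of 0.183, and with a robust prior variance that followed intensity it was called, with an adjusted p of 0.0443. With 1 array number left out, which leaves a single dye orientation at a dose, it ran from -0.105 to 0.467, so its direction depended on both orientations being present. Within the 3 scan days it was 0.241, 0.121 and 0.18, and over all alternatives the adjusted p ran from 0.000213 to 0.64. Against saline, the high dose mean was 0.071 ± 0.083 (adjusted p = 0.405) and the low dose mean -0.11 ± 0.119 (adjusted p = 0.22).

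Single Gria1 arrays lay a median of 0.246 from the mean of their dye swap. At the high dose, the ratios lay from -0.323 to -0.016 on the 6 arrays with MK-801 RNA in Cy5 and from 0.017 to 0.455 on those with it in Cy3. Red blood cell genes moved with the same contrast: Hbb, Alas2 and Slc4a1 were called higher at the high than at the low dose, by 0.877, 0.612 and 0.264. These were 3 of 3 markers measured, each well above background in the saline colour on at least 20 of 24 arrays. The share called over all probes in this contrast was 1.44%. Their summed log2 level ran from 11.22 to 12.29 over the regions in high-dose rats, from 10.28 to 11.12 in low-dose rats and from 10.72 to 11.84 in saline rats. Of the 5 microglial markers, 2 were called lower at the high dose than at the low dose, P2ry12 by a log2 difference of -0.228 and C1qc of -0.154, and all 5 lay between -0.228 and -0.01. The part of red blood cell and microglial RNA in the Gria1 difference was not tested.

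Gria4 pointed the other way between doses on its first probe. High minus low was below 0 in 5 of 6 regions, from -0.215 in the hippocampus to 0.052 in the amygdala, with a mean of -0.106 ± 0.089 (adjusted p = 0.28). The lowest single value was that of the hippocampus at the high dose, -0.243. The flip probe had a high minus low mean of 0.082 ± 0.166 over 5 regions (adjusted p = 0.655). Over both doses the Gria4 probes read -0.029 ± 0.058 (n = 6) and -0.047 ± 0.075 (n = 5).

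**Figure D3:**
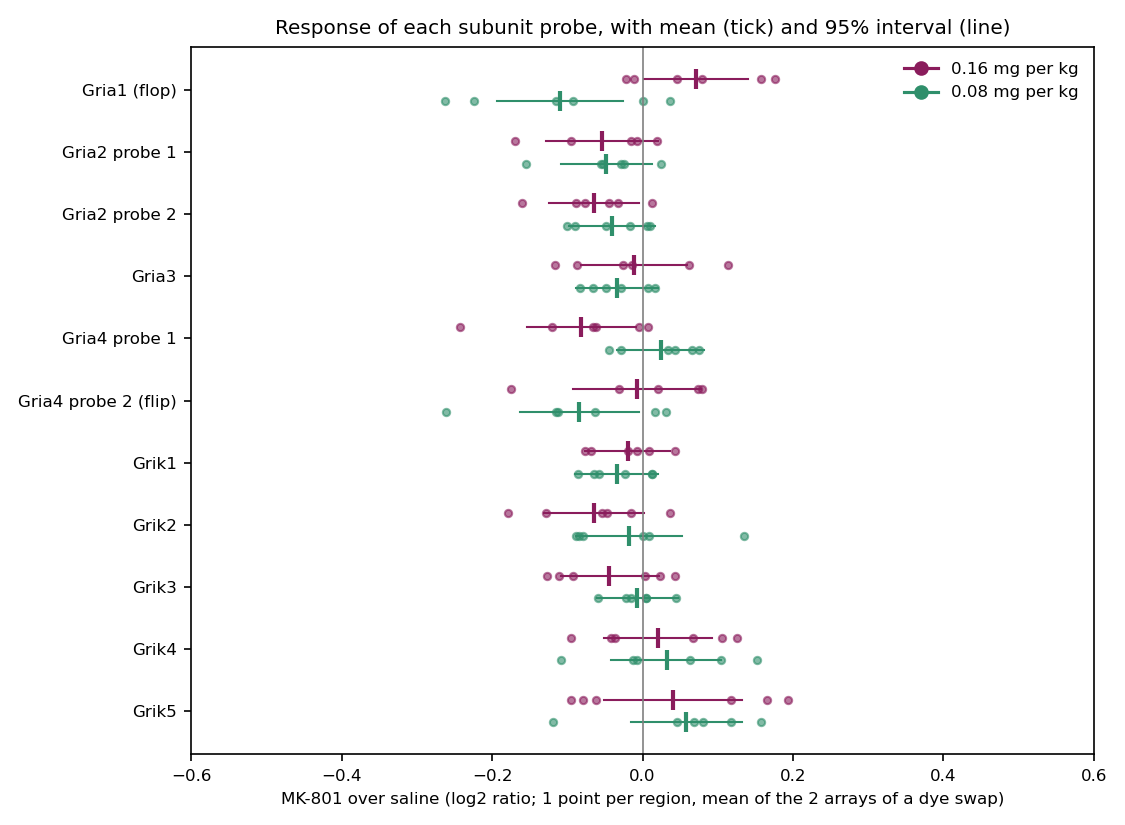
MK-801 over saline as a log2 ratio (horizontal axis) of each subunit probe (vertical axis), 1 point per region and dose, with the mean as a tick and its 95% interval as a line. All 130 points lie between -0.263 and 0.194, and Gria1 is the probe with the widest gap between the doses, 0.071 against -0.11.

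Whether the response differed between regions was tested with the mean of both doses in each region, against the spread between doses. Both doses are ratios to RNA of the same saline rats, so this spread leaves out that of the saline side, and agreement between the doses in a region is no independent repeat. Of the 9 subunit probes with all 12 values, 0 were called in the F test of any regional difference (background 0.362%, or 89 of 24618), and the other 2 could not be tested. Of 54 pairs of a probe and a region 0 were called, where the background was 0.926% in the midbrain, 1.73% in the amygdala, 0.743% in the ventral striatum, 0.634% in the cerebral cortex, 0.479% in the hippocampus and 0.674% in the hypothalamus. At an unadjusted p under 0.05 there were 12 of 54, where the share over all pairs was 13.2% (9.62% to 17.5% by region).

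The lowest p values of the F test were those of the high-affinity kainate subunits. Among single regions, Grik4 in the midbrain was followed by the second Gria2 probe in the midbrain, at -0.125 ± 0.037 (SE; adjusted p = 0.134). Grik4 read 0.125 and 0.152 in the midbrain at the high and low dose, 0.106 and 0.105 in the ventral striatum, 0.067 and 0.063 in the cerebral cortex, -0.042 and -0.013 in the hippocampus, -0.036 and -0.008 in the hypothalamus, and -0.095 and -0.108 in the amygdala. At both doses the values were positive in 3 regions and negative in 3. The F test gave an unadjusted p of 0.00252 and an adjusted p of 0.128. The midbrain mean was 0.139 ± 0.035 (SE; adjusted p = 0.0864) and the amygdala mean -0.102 ± 0.035 (SE; adjusted p = 0.153). Grik5 followed the same pattern with 0.118 and 0.157 in the midbrain, 0.194 and 0.117 in the ventral striatum, 0.165 and 0.069 in the cerebral cortex, and -0.079 and -0.119 in the amygdala. Its hippocampus and hypothalamus were below 0 at the high dose (-0.062 and -0.095) and above 0 at the low dose (0.08 and 0.046), and the F test gave an adjusted p of 0.218. Across the 12 dye swaps the Grik4 and Grik5 ratios correlated with r = 0.9 and had the same sign in 10, on arrays they share. Both probes also had large dye effects, with a median difference of 0.183 and 0.342 log2 units between an array and the mean of its dye swap, against 0.0259 to 0.246 for the other subunit probes.

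**Figure D4:**
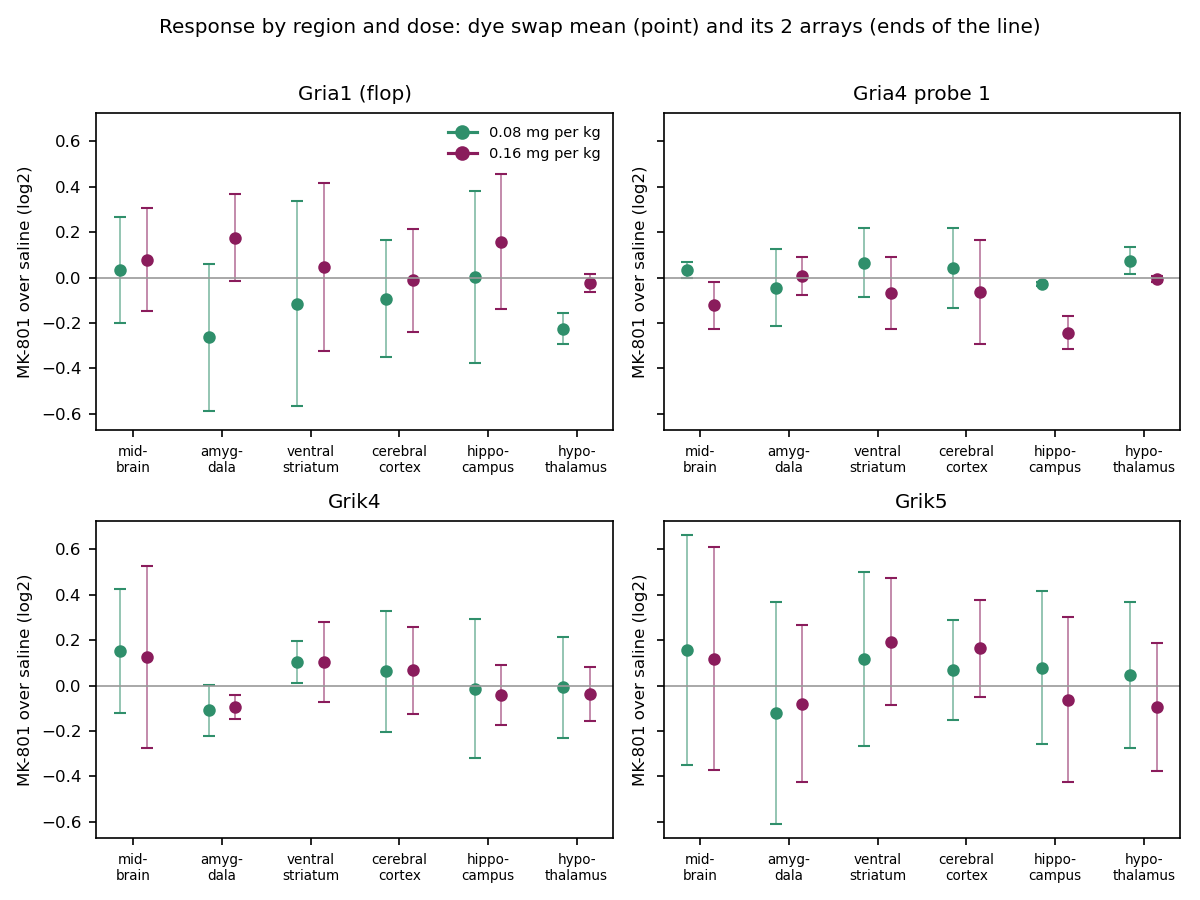
Log2 ratio of MK-801 to saline (vertical axis) by region (horizontal axis) and dose for Gria1, the first Gria4 probe, Grik4 and Grik5, with the mean of a dye swap as a point and its 2 arrays as the ends of the line. Gria1 is higher at 0.16 than at 0.08 mg per kg in every region, Grik4 and Grik5 are above 0 in midbrain, ventral striatum and cerebral cortex and below 0 in amygdala, and every line of Grik5 crosses 0.

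The remaining kainate genes were close to 0. Grik1 ran from -0.086 to 0.043 over the 12 dye swaps, the narrowest span of the family, with a mean of -0.027 ± 0.038 (adjusted p = 0.639). Grik2 ran from -0.179 in the midbrain at the high dose to 0.135 in the amygdala at the low dose, with a mean of -0.041 ± 0.078 (adjusted p = 0.588). Its midbrain mean was -0.129 ± 0.041 (SE; adjusted p = 0.159) and its hippocampal mean -0.108 ± 0.041 (SE; adjusted p = 0.243). Grik3 ran from -0.127 to 0.044, with a mean of -0.025 ± 0.044 (adjusted p = 0.681). Across the whole family, saline levels differed between regions by up to 2.96 log2 units, while all values of MK-801 over saline lay between -0.263 and 0.194.

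The partner genes gave no call either. In each of the 4 comparisons, 0 of 10 AMPA receptor auxiliary subunits, 0 of 2 kainate receptor auxiliary subunits, 0 of 15 binding and trafficking proteins and 0 of 2 RNA editing enzymes were called. Medians over both doses were 0.006, -0.002, -0.007 and -0.015, against 0 over all probes. Among auxiliary subunits the largest changes were those of Cacng8, at -0.023 ± 0.06 (adjusted p = 0.75), and Gsg1l, at 0.021 ± 0.053 (adjusted p = 0.762). Neto1 and Neto2 were at -0.004 and 0.001. Nptx2 and Nptx1, secreted pentraxins that cluster AMPA receptors at synapses, had the largest changes of the trafficking list, at -0.108 ± 0.145 (adjusted p = 0.293) and -0.082 ± 0.118 (adjusted p = 0.357). Each partner gene is given by its brightest probe, and the 2 probes of Nptx2 differed, at -0.108 and -0.03. The editing enzymes Adar and Adarb1 were at -0.006 ± 0.046 and -0.024 ± 0.154. Among markers of other cells over both doses, 1 of 7 oligodendrocyte markers and 1 of 5 microglial markers were called higher and 1 of 4 meningeal markers lower, and none of 8 neuronal or 6 astrocyte markers was called (background 2.45% in either direction). At the low dose, 3 of 5 microglial and 2 of 7 oligodendrocyte markers were called higher (background 2.42% in either direction). Called lower at that dose were 1 of 4 meningeal and 2 of 3 red blood cell markers, Hbb at -0.545 and Alas2 at -0.311. At the high dose, 3 of 3 red blood cell markers were called higher, Hbb at 0.332, Alas2 at 0.301 and Slc4a1 at 0.178. So was 1 of 7 oligodendrocyte markers (background 2.01%).

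**Figure D5:**
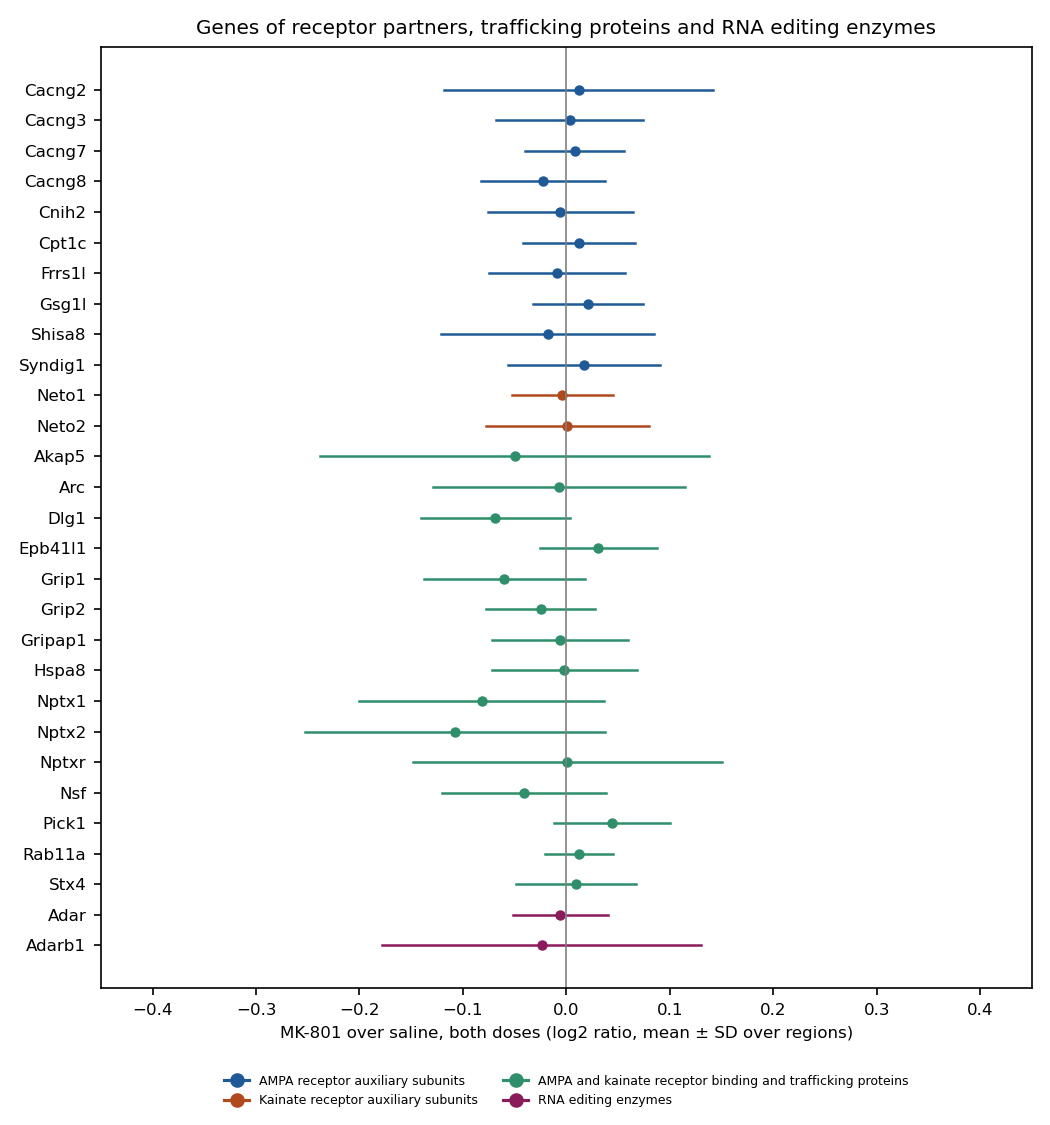
Log2 ratio of MK-801 to saline over both doses (horizontal axis, mean ± SD over 4 to 6 regions) of 29 genes (vertical axis) of auxiliary subunits, trafficking proteins and RNA editing enzymes. Means of the brightest probe of each gene lie between -0.108 for Nptx2 and 0.044 for Pick1, and none passed the test.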

How the data were processed

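The deposited scanner files, from Agilent Feature Extraction 9.5.3.1 per the file headers, hold mean and background fluorescence intensity per colour for 43379 spots that make up 41012 probes, besides 1639 control spots. Their log ratio and the series' value table are log10 ratios of Cy5 to Cy3 that the authors deposited after background subtraction and dye normalization, per the file headers; that table was not turned for dye swaps and not centred, with array medians from -0.0295 to 0, and served as an alternative. Spot flags were used as deposited.

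In R 4.3.3 with limma 3.58.1, intensities were background corrected (normexp, offset 50) and normalized within arrays by loess, without controls and outlier spots, replicate spots were averaged per probe, and every log2 ratio was expressed as MK-801 over saline. The mean of the 2 arrays of a dye swap was 1 value and needed both. Kept were the 27690 probes that exceeded background clearly in Cy3 and Cy5 on 12 or more of 24 arrays and tested, given at least 4 regional values, by lmFit and eBayes, with Benjamini-Hochberg adjustment over all probes. Saline levels used quantile normalization of intensities between arrays. Probes were named through RefSeq, assembly GRCr8, by accession (10735), symbol (5512) or synonym (3718), and 21047 kept the file's name. Figures were drawn with matplotlib 3.10.9. The fits were tested on simulated data.

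One partner list is not reported here. Members and gene lists were chosen with earlier results of these data known. Text names every subunit probe, of each partner list the 2 genes with the largest change over both doses and any that passed a test, and for the brightest probe of each subunit the 2 genes with the most similar saline profile. Array numbers mark dye orientation and dose in the labels, and same-numbered arrays of different regions deviated together (r from 0.522 to 0.747). Since a number fixes the dye orientation, this cannot be told apart from a shared dye effect. Alternatives for the responses were the scanner's log ratio, the value table, other filters, and an intensity trend with a robust prior. Further ones were the array number as a block, each region or array number left out, and each scan day alone. The 10 alternatives for saline levels were no quantile step, the scanner's processed signal, each dye alone, and each array number left out. They also included the RNA of each dose group, and all 10 used the same slides.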

Additional observations from a re-analysis of the deposited data

Results flagged for a closer look

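The 4 saline arrays of a region were compared for each subunit probe, and 1 array stood apart from the other 3, by Dixon's criterion, in 10 of 64 such sets (15.6%). Of the 44 sets of regional responses, 0 had such a value, and chance alone gives about 1 in 20 sets. On the third array Gria1 read 9.223 in the amygdala against 9.09 to 9.108 on the others and 9.606 in the hypothalamus against 9.274 to 9.316. The second Gria2 probe read 12.808 on that array in the hippocampus against 13.425 to 13.549. The flip probe of Gria4 stood apart in 3 regions: 8.202 in the amygdala on the first array against 9.82 to 10.02, and on the third array 9.7 in the hippocampus against 10.862 to 10.904 and 7.277 in the hypothalamus against 8.249 to 8.411. In the amygdala the first array was also apart for Grik1, at 9.065 against 8.753 to 8.801, and for Grik2, at 9.341 against 10.155 to 10.306. On the same array number Grik2 read 8.5 in the hypothalamus against 8.85 to 8.9, and Grik4 read 9.7 in the cerebral cortex against 9.282 to 9.35.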

How the results depend on the processing

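No subunit probe was called under the scanner's log ratio, the value table, either filter, the array number block, the leaving out of any 1 region, or any scan day, and 1 was called (Gria1, high minus low) with the intensity trend and robust prior. Of the 782 subunit values under alternatives, 86 had another sign than the reported one. Counts over all probes moved more. For both doses, high dose, low dose and high minus low in this order, the scanner's log ratio gave 352, 282, 360 and 197 calls and the series' table of values gave counts of 346, 285, 351 and 195. With the array number as a replicate block the both doses count was 1802, and no other count moved by over 1.5 times. Scan day 1 alone gave 94, 199, 69 and 84 calls, day 2 gave 311, 327, 161 and 150, and day 3 gave 91, 120, 266 and 94, from 2 regions each. The F test gave 15 calls with the scanner's log ratio, 15 with the value table and 411 with the intensity trend, and pairs of a probe and a region gave 797, 813 and 2084.

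Leaving out 1 region or 1 array number gave 400 to 5711 calls over both doses, 315 to 8869 at the high dose, 426 to 9691 at the low dose and 260 to 8807 for high minus low, and 0 to 5, 0 to 6, 0 to 6 and 0 to 4 subunit probes. All calls of subunit probes came from leaving out an array number, which leaves 1 dye orientation at a dose, so that the dye effect no longer cancels. Over these alternatives, both doses ran from -0.162 to 0.124 for Gria1 and from -0.139 to 0.238 for Grik5. The high dose ran from -0.154 to 0.296 for Gria1, from -0.166 to 0.144 for Gria3, from -0.158 to 0.199 for Grik4 and from -0.289 to 0.369 for Grik5. The low dose ran from -0.396 to 0.176 for Gria1, from -0.179 to 0.11 for Grik1, from -0.18 to 0.244 for Grik4 and from -0.318 to 0.435 for Grik5. High minus low ran from -0.105 to 0.467 for Gria1, from -0.13 to 0.159 for Grik1, from -0.223 to 0.201 for Grik4 and from -0.394 to 0.358 for Grik5.

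Of the 11 subunit probes, 7 kept their highest saline region without the quantile step between arrays, 7 with the scanner's processed signal, 6 in the RNA of low-dose rats and 7 to 10 with an array number left out; the cause was not tested. Signal limits Grik3, which was not well above background in the hippocampus.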
